A study of Mus musculus with 23 samples.

Results

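The regions described here are the stretches of open chromatin that were called in every biological sample of the maxillary prominence mesenchyme at embryonic day 12.5 (E12.5). ATAC-seq, an assay of transposase-accessible chromatin read out by sequencing, finds such stretches because the Tn5 transposase inserts sequencing adapters where DNA is not wrapped in packed nucleosomes. All embryos were wild-type C57BL/6 mice with no transgene or treatment. The maxillary prominences were dissected, their ectoderm was removed after Dispase II digestion, and about 50000 mesenchymal cells went into each library. How many embryos were pooled per sample is not stated in the labels used here. E12.5 had 3 biological samples with 2, 4 and 2 sequencing runs, and each sample had 1 deposited peak list, called list 1, list 2 and list 3 here. Overlapping peaks of the 3 lists, sharing 1 bp or more on the 19 autosomes or chromosome X, were joined into regions, and a region was kept when every list called it. This left 3444 of the 75445 E12.5 regions (4.56%), beside 12068 regions called in 2 lists (16.0%) and 59933 called in 1 list (79.4%). The 9 lists of the whole series merged into 118102 regions.

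The maxillary prominence is a paired swelling of the embryonic face that is filled with neural crest cells and gives rise to the upper jaw, the cheek and the palatal shelves. At this stage the shelves grow out of its inner side, and its mesenchyme holds the precursors of bone, cartilage, tooth papilla and connective tissue. Open chromatin falls into promoters, which lie at the starts of genes and are open in many cell types, and distal elements such as enhancers, which are more often particular to a tissue.

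The 3 lists were of unequal length. They held 26584, 50361 and 19139 peaks, which merged into 25637, 49906 and 18858 regions, so that the 3444 shared regions were 13.4%, 6.9% and 18.3% of them. List 2 was the longest, and the smallest share of it was shared. List 1 stood apart in its peak shape: its peaks had a median width of 125 bp inside shared regions and 95 bp elsewhere, against 393 and 188 bp in list 2 and 325 and 209 bp in list 3. It also reached the highest fold enrichment, 14.7, against 7.19 in list 2 and 6.62 in list 3. Fold enrichment is the authors' value for each peak, the signal at the summit over the local background. Its median over all peaks was 3.5, 2.47 and 2.84 in lists 1, 2 and 3, and the lists were not scaled to each other. A higher fold in list 1 than in list 2 thus goes with the whole lists. Like folds need not mean like ranks, and a mean and SD over lists only describe the deposited values. Read counts were not part of the lists, and the sequencing depth is therefore unknown. Leaving out list 1, 2 or 3 gave 8292, 3754 or 9940 regions called in both others, so lists 1 and 3 each limited the shared set more than list 2 did.

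Shared regions were stronger than the rest of each list. In list 1 the median fold was 3.75 for peaks in shared regions and 3.48 for the other peaks. In list 2 the medians were 2.91 and 2.43, and in list 3 they were 3.11 and 2.81. The direction was the same in each list. Of the 1000 peaks with the highest −log10 q-value, the authors' score for how unlikely a peak is as noise, 428, 649 and 629 lay in shared regions in lists 1, 2 and 3. Of the top 10 peaks, 1 lay in a shared region in list 1, but 10 did in list 2 and 10 in list 3. The 10 strongest peaks of list 1 thus lay, with 1 exception, outside the shared regions.

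Most of the best-ranked shared regions lay at the starts of genes. Rank is by −log10 q within each list, averaged over the 3 lists. The leading region, chr11:94211121-94211874 (mm10), spans the start of Tob1, an antiproliferative regulator of mRNA decay, with a fold of 7.38, 5.87 and 5.16 in lists 1, 2 and 3. The next, chr12:55538417-55538957, lay 26.7 kb from the nearest protein-coding gene, Aldoart2, an aldolase retrogene, with a fold of 8.4, 6.51 and 5.83. It was the only region among the best 10 that lay farther than 1.36 kb from a protein-coding gene boundary. The others were at Samd4b, an RNA-binding translational repressor, Ssbp2, a cofactor of LIM-domain transcription complexes, Hnrnpr, an RNA-binding protein of the nucleus, Camta1, a calmodulin-binding transcription factor, Zfp654 and Cggbp1, which share a start region, Rab40c, a small GTPase, Arrdc4, an arrestin-like adaptor, and Nup98, a nuclear pore protein that shares its start region with Pgap2. The mean fold of these 10 regions ran between 4.51 ± 0.473 at Camta1 and 6.91 ± 1.33 at the region on chromosome 12 (SD, n = 3 lists each).

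The promoter sequences at these best-ranked regions show what the strongest shared open sites are made of. Each line gives the 150 bases before the transcription start, from RefSeq on GRCm38.p6 (mm10), read 5′ to 3′ on the gene's strand. Capitals mark CCAAT, the box bound by NF-Y, and GGGCGG, the GC box bound by Sp factors, on either strand, so that ATTGG and CCGCCC are their reverse complements.
Tob1, chr11:94211304-94211453, plus strand: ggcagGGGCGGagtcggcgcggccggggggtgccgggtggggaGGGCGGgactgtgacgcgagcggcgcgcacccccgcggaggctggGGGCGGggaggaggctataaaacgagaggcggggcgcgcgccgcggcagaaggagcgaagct
Samd4b, chr7:28436192-28436341, minus strand: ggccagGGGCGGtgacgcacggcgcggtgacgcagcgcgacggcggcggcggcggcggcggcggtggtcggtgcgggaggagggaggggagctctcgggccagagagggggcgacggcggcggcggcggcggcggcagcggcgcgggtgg
Ssbp2, chr13:91460947-91461096, plus strand: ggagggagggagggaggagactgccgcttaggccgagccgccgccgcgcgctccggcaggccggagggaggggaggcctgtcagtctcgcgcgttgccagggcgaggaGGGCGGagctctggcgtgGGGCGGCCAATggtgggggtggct
Hnrnpr, chr4:136310792-136310941, plus strand: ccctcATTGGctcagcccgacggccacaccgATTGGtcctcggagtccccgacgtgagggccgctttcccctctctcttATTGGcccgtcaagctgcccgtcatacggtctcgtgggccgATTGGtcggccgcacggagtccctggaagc
Camta1, chr4:151861769-151861918, minus strand: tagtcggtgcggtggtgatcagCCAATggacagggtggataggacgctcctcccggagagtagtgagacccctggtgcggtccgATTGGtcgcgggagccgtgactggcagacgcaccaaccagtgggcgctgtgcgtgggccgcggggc
Cggbp1, chr16:64851851-64852000, plus strand: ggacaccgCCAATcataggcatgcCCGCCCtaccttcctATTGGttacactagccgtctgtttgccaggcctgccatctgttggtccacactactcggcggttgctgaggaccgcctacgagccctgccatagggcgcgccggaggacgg
Rab40c, chr17:25919715-25919864, minus strand: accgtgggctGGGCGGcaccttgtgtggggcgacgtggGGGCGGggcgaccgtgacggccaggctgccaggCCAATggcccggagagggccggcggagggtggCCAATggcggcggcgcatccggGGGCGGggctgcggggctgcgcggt
Arrdc4, chr7:68749239-68749388, minus strand: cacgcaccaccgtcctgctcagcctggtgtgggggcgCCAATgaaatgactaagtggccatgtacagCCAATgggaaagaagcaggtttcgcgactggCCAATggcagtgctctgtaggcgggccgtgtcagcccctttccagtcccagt
Nup98, chr7:102210167-102210316, minus strand: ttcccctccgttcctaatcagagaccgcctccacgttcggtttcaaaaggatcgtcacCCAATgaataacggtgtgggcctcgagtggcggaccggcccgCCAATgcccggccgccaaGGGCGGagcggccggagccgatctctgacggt
All 150 bases lay inside the shared region, except at Samd4b, where 75 did, and Rab40c, where 81 did. Hnrnpr carried 4 CCAAT boxes and Arrdc4 carried 3 in these 150 bases. Camta1, Cggbp1, Rab40c and Nup98 carried 2 each, Ssbp2 carried 1, directly after a GC box, and Tob1 and Samd4b carried none. GC boxes were found 3 times each at Tob1 and Rab40c and were not found at Hnrnpr, Camta1 and Arrdc4. Tob1 alone of the 9 held TATAAA, the core of the TATA box, on either strand. A match to such letters is a description of the sequence, not evidence that a factor bound there.

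Over the shared regions as a set, promoter overlap followed the density of CG pairs, with no promoter listed on chromosome 18. Of 21044 RefSeq promoters of 300 bases (250 before and 50 after the start), 1581 overlapped a shared region (7.51%), and they belonged to 1400 genes. Overlapped promoters held a median of 25 CG pairs and 65.0% G and C, against 11 CG pairs and 55.7% in the promoters that were not overlapped. Among promoters with 0 to 2 CG pairs 0.108% were overlapped, among those with 6 to 10 it was 1.28%, and among those with 21 to 30 it was 16.0%. The share then levelled off, at 15.4% for promoters with over 30 CG pairs. In the separate lists the same bins of 0 to 2 and 21 to 30 CG pairs gave 0.297% and 20.7% in list 1, 1.43% and 40.9% in list 2, and 0.378% and 31.1% in list 3. All 3 lists therefore showed the steep part of this relation, while over 30 CG pairs list 1 fell back to 15.4% and list 3 reached 37.0%. The base composition of a promoter also affects how well it is amplified and sequenced, and its part in this relation was not tested.

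**Figure D1:**
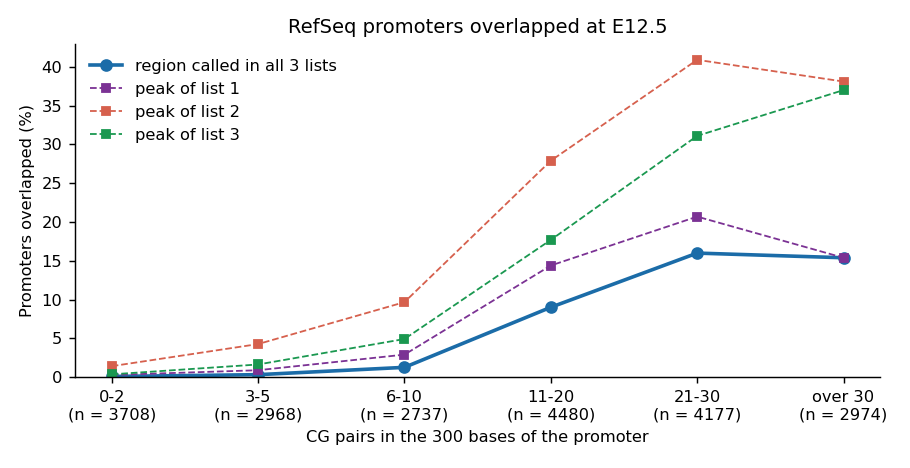
Share of RefSeq promoters (percent, vertical axis) that overlapped a region called in all 3 E12.5 lists (blue circles) or a peak of list 1, 2 or 3 (squares), by the number of CG pairs in the 300 bases of the promoter; n is the number of promoters in each bin. The shared regions overlapped 0.108% of promoters with 0 to 2 CG pairs and 16.0% of those with 21 to 30.

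Promoter motifs were also compared within classes of CG density, over 20 and 3 to 20 CG pairs. The lower class was broad. Shared regions overlapped 0.337% of its promoters with 3 to 5 CG pairs, 1.28% with 6 to 10 and 9.02% with 11 to 20. Differences within that class are therefore not separated from CG density, and GGGCGG itself holds a CG pair. CCAAT, on either strand, was found in 49.1% of overlapped promoters and 38.5% of all promoters. Among promoters with over 20 CG pairs it was found in 47.7% of the 1128 overlapped and 30.9% of the 6023 not overlapped, and among those with 3 to 20 CG pairs in 53.2% of overlapped and 40.2% of not overlapped promoters. The 1499 CCAAT boxes in overlapped promoters lay before the start at a median position of -91 (quartiles -158 and -51). GGGCGG was found in 79.7% of overlapped and 46.7% of all promoters. With over 20 CG pairs the shares were 86.0% of overlapped and 81.3% of not overlapped ones, and with 3 to 20 CG pairs they were 64.6% and 36.7%. Both boxes were thus more frequent in overlapped promoters in either class, the GC box by a wide margin only in the class of 3 to 20 CG pairs. TATAAA was less frequent in overlapped promoters, 3.86% against 12.7% of all, and with 3 to 20 CG pairs it was found in 4.68% of overlapped and 13.0% of not overlapped ones. With over 20 CG pairs the shares lay close together, at 3.46% and 3.65%. TAATTA, a core recognised by homeodomain proteins, was found in 0.506% of overlapped promoters and 4.47% of all, in 1.34% of overlapped and 5.18% of not overlapped ones with 3 to 20 CG pairs, and in 0.177% and 0.83% with over 20. Differences in the other motifs over all promoters were not kept with over 20 CG pairs. CCGGAAG, recognised by ETS factors, was found in 16.1% of overlapped and 11.7% of all promoters, but with over 20 CG pairs in 18.1% of overlapped and 20.5% of not overlapped ones. TGACGTCA, recognised by CREB, was found in 3.48% of overlapped and 2.26% of all promoters, and in 3.99% and 3.92% with over 20 CG pairs. CACGTG, recognised by E-box factors such as Myc, was found in 10.8% and 7.91%, and in 12.1% and 11.7% with over 20 CG pairs. TGANTCA, recognised by AP-1, was found in 3.42% and 7.04%, and in 2.75% and 2.64% with over 20 CG pairs. Promoters are not replicates, so these shares are given without a test.

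Shared regions were wide and close to genes. Their median width was 548 bp (quartiles 392 and 771, range 145 to 2210), against 312 bp for regions called in 2 lists and 158 bp for regions called in 1 list. Merging peaks of several lists widens a region by construction, so the order of these widths follows in part from the rule. Together the shared regions covered 2120 kb. Distance was taken from the strongest summit to the nearest boundary, start or end, of 21627 protein-coding genes in a RefSeq annotation of GRCm38.p6. Within 1 kb of such a boundary lay 1605 shared regions (46.6%), against 23.1% of regions called in 2 lists and 11.9% of those called in 1 list. Another 802 (23.3%) lay at 1 to 10 kb, 840 (24.4%) at 10 to 100 kb and 197 (5.72%) beyond 100 kb. Of the regions called in 1 list, 46.4% lay at 10 to 100 kb and 13.6% beyond. The median distance was 1258 bp, against 10827.5 bp for regions of 2 lists and 16108 bp for regions of 1 list. The share inside gene bodies hardly separated the classes, at 57.7%, against 55.7% and 56.0%. Of all peaks in lists 1, 2 and 3, 16.2%, 16.8% and 29.0% lay within 1 kb of a boundary (20.7% ± 7.22, SD, n = 3), so the shared regions lay above every whole list.

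The boundary share depended on list 3. Regions called in lists 1 and 2 lay within 1 kb in 24.9% of cases when list 3 was left out, against 40.5% without list 1 and 44.0% without list 2. Among regions called in exactly 2 lists the shares were 13.5% for lists 1 and 2, 24.0% for lists 1 and 3, and 36.1% for lists 2 and 3. The pairs with list 3 were thus the higher ones, and list 3 was also the shortest list and the richest in boundary peaks.

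**Figure D2:**
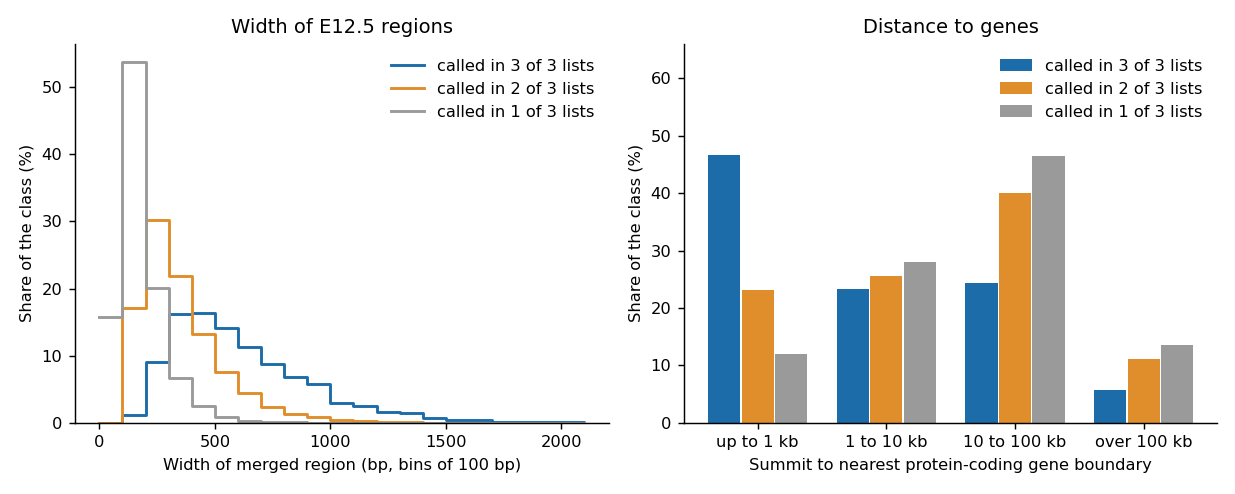
Width of merged E12.5 regions in bins of 100 bp (left) and distance of their strongest summit to the nearest protein-coding gene boundary (right), each as the percent of regions called in 3 lists (blue), 2 lists (orange) or 1 list (grey). Regions called in 3 lists had a median width of 548 bp and 46.6% lay up to 1 kb, against 312 bp and 23.1% for 2 lists and 158 bp and 11.9% for 1 list.

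Near a gene, the shared regions sat at its start. Among the 1605 regions within 1 kb of a boundary, the nearest gene had a known strand for 1320, and for 1280 of these (97.0%) the nearest end was the 5′ end. The other 40 lay at a 3′ end. For the 1485 regions within 1 kb of a listed transcription start, the summit lay at a median position of -43 bp, just before the start (quartiles -149 and 171), and 57.4% of the summits fell between 250 bp before and 100 bp after the start. In 297 cases a region lay within 1 kb of the boundaries of 2 or more genes, as at Zfp654 and Cggbp1. Promoter-proximal regions were also the stronger ones in lists 2 and 3. In lists 1, 2 and 3 their median fold was 3.94, 3.15 and 3.32 within 1 kb, 3.69, 2.79 and 2.96 at 1 to 10 kb, 3.76, 2.81 and 2.97 at 10 to 100 kb, and 3.94, 2.87 and 3.11 beyond 100 kb. In list 1 the regions beyond 100 kb equalled those within 1 kb.

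**Figure D3:**
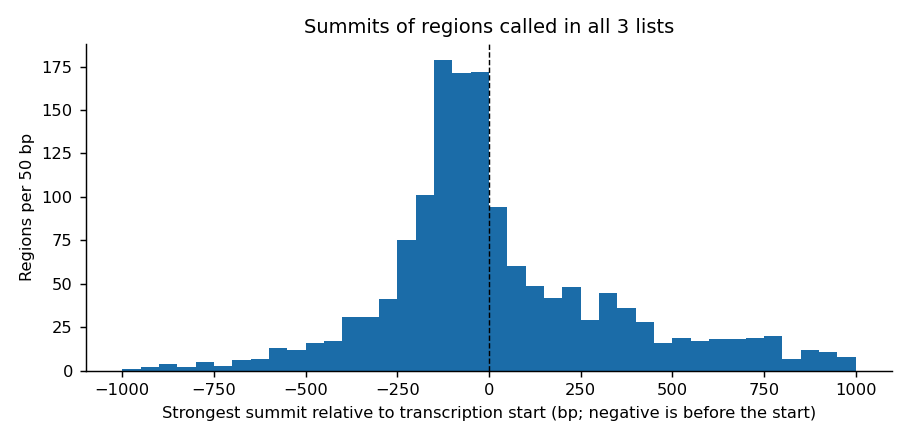
Position of the strongest summit relative to the nearest listed transcription start (bp, negative before the start) for the 1485 regions called in all 3 E12.5 lists that lay within 1000 bp of a start, as regions per 50 bp. The summits gather just before the start, with a median of -43 bp and quartiles of -149 and 171 bp.

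Summits of the 3 lists lay close together within shared regions, which follows in part from the rule that their peaks overlap. The strongest summits of the 3 lists lay within a median of 177 bp of each other (quartiles 92 and 307, highest 1260), and 2291 regions had all 3 within 250 bp. In 2603 regions each list had exactly 1 peak, and the other 841 held more, up to 8 in all. At least 1 base was covered in all 3 lists in 2929 regions (85.0%), with a median of 112 such bases. The remaining 515 were joined only through a chain of overlaps. Regions without a common base lay within 1 kb of a boundary in 36.1% of cases, against 48.4% of those with such bases. Across the 3444 regions, Spearman's correlation of −log10 q was 0.399 between lists 1 and 2, 0.22 between lists 1 and 3, and 0.405 between lists 2 and 3. Regions are not independent replicates, and these coefficients are descriptions without a test.

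Shared regions were spread over the genome, with few on chromosome X. It held 26, or 2.69 per 100 protein-coding genes, against 16.5 on the autosomes together and 13.0 to 23.5 on single autosomes. Lists 1, 2 and 3 had 159, 605 and 199 regions there, and 3.25% of the chromosome's regions were shared, against 4.58% on the autosomes. Neighbouring shared regions lay a median of 260 kb apart, and 137 of 3424 neighbouring pairs were within 10 kb.

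Each region was assigned to the gene whose boundary lay nearest to its summit, up to 100 kb away. This gave 3247 regions to 2928 of the 21627 protein-coding genes (13.5%), and 1565 genes (7.24%) had a region within 1 kb. A region counted for 1 gene only, although 297 regions lay within 1 kb of the boundaries of 2 or more genes. Counts of genes with a region, here and below, thus leave out a gene whose neighbour was nearer to the summit. Most of the 2928 had 1 region: 2644 had exactly 1, 256 had 2, 23 had 3 and 5 had 4 or more. A gene that stands alone collects more regions, so the stretch of genome nearest to its boundaries is given beside the counts. The median stretch was 224 kb for the 28 genes with 3 or more regions, 78.4 kb for all genes with a region and 45.8 kb for all genes.

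Ppp2r5c, a regulatory subunit of protein phosphatase 2A, had the most regions, 6 over a stretch of 228 kb on chromosome 12. Only 2 of them lay within 20 kb of a boundary, 3 were left with summits within 250 bp, and 0 when only peaks reaching a −log10 q of 5 were kept. They lay 0.298 to 50.0 kb from its boundaries. The region at its boundary, chr12:110446314-110447049, had a fold of 3.52, 3.01 and 3.12 in lists 1, 2 and 3. The region outside the gene at chr12:110410444-110410716 had a fold of 5.25, 3.5 and 2.84. List 1 was the highest at both, and in the other 4 regions the fold ran between 2.28 and 3.62 over the lists.

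Another 4 genes had 4 regions. Auts2, a regulator of transcription and of neuronal development, had 4 in 365 kb, with 2 of them within 1 kb of a boundary. Ctdspl, a small phosphatase, had 4 in 135 kb, of which 2 flanked a boundary. Dok5, an adaptor of receptor tyrosine kinases, had 4 in 348 kb and none within 1 kb, and Phlpp1, a phosphatase that counters Akt, had 4 in 341 kb. Another 23 genes had 3 regions, of which those first in the alphabet are named here. They were Arid1b, a subunit of the BAF chromatin remodeller, Cdh4, a classical cadherin, Chchd6, a protein of the mitochondrial inner membrane, Dcun1d4, a cofactor of neddylation, Epb41l4a, a FERM-domain protein, Fgd3, a guanine nucleotide exchange factor, Gli3, the main transcriptional repressor of the Hedgehog pathway, Gpc6, a glypican, and the predicted genes Gm39147 and Gm7827. Fgd3 had its 3 regions in a stretch of 75.8 kb, or 3.96 per 100 kb, against 0.196 per 100 kb over all genes. The highest density among the 28 genes with 3 or more regions was that of Ppp1r10, a nuclear regulator of protein phosphatase 1, with 3 regions in 28.1 kb, or 10.7 per 100 kb. At Gli3 the stretch was 400 kb and the density 0.75 per 100 kb.

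The 3 genes that mark this mesenchyme gave unequal results. Osr2 encodes a zinc finger factor needed for growth of the palatal shelves, Sox9 the master regulator of cartilage formation and Runx2 the master regulator of osteoblasts. Osr2 had 1 shared region, chr15:35292585-35293073, 3.12 kb from its boundary, with a fold of 3.4, 2.73 and 3.22 in lists 1, 2 and 3. No base of it was covered in all 3 lists, so its peaks overlap only in pairs, and without list 2 the region was lost. Sox9 had 1 shared region, chr11:112782476-112783060, inside the gene and 585 bp from its boundary, with a fold of 3.12, 2.63 and 3.25. It stood in the top 3.61% of list 3, the top 13.3% of list 2 and the top 64.0% of list 1, so the lists did not agree on its strength. Runx2 had no assigned region, although lists 1, 2 and 3 held 4, 11 and 1 regions nearest to it and 1 of these was called in 2 lists. A shared region did lie inside the Runx2 gene, chr17:44734493-44735550, with a fold of 4.28, 3.13 and 3.18, but its summit was nearest to a boundary of Supt3, a gene of the same locus, at 41.8 kb. A peak list shows accessibility in a mixture of cells, and fewer cells with an open site cannot be told apart from a less open site in every cell.

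Palate genes were counted in a list of 43 transcription factors and other cleft genes and a list of 46 signalling genes. Of these 89 genes 19 had a shared region (21.3%), against 13.5% of all genes. Within 1 kb the counts were 8 of 89 (8.99%), against 7.24% of all genes. Palate genes had long stretches, with a median of 145 kb against 45.8 kb, and per 100 kb of stretch they had 0.178 shared regions, against 0.196 over all genes. The larger share of palate genes thus had no counterpart in region density. Regions called in 2 or 3 lists reached 57 of the 89 palate genes (64.0%), against 39.7% of all genes.

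**Figure D4:**
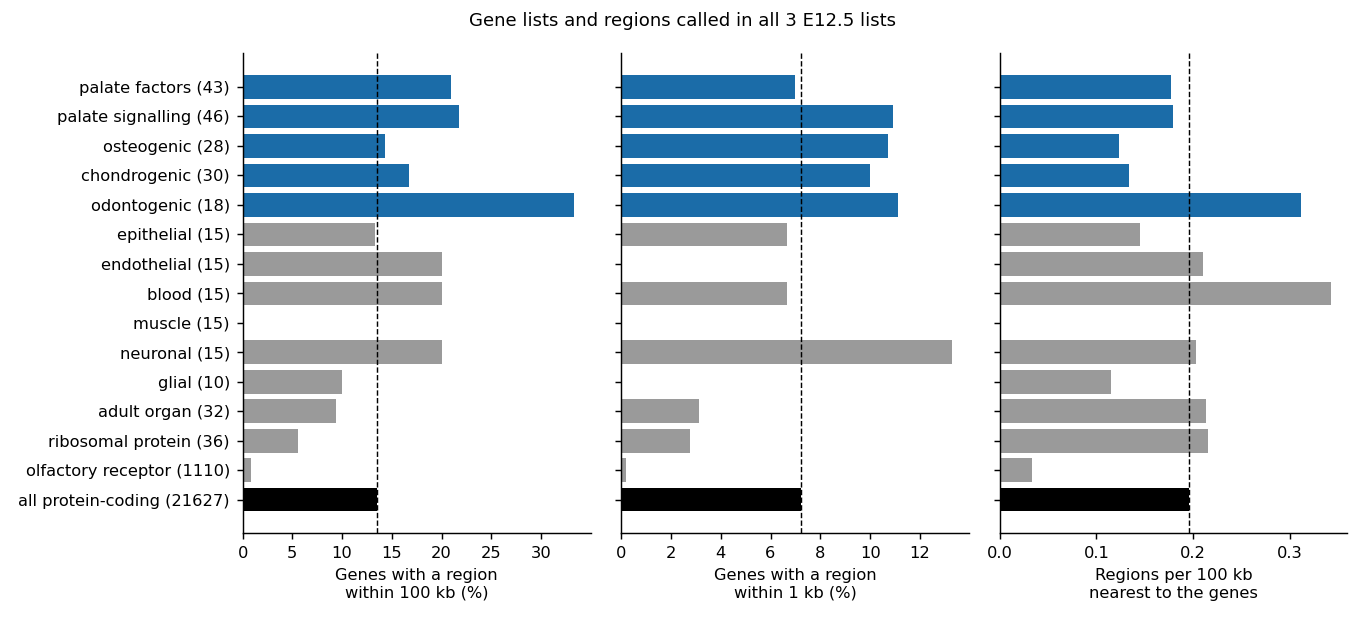
Percent of the genes in each list with a region called in all 3 E12.5 lists within 100 kb (left) or 1 kb (middle) of a boundary, and such regions per 100 kb of the genome nearest to the list's genes (right), with the number of genes in brackets; blue bars are palate, skeletal and tooth lists, grey bars other lists, and the black bar and dashed line all protein-coding genes. Palate factors reached 20.9% and palate signalling genes 21.7%, against 13.5% of all genes, but both lay at 0.177 to 0.179 regions per 100 kb, against 0.196.

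Among the palate factors, 9 of 43 had a shared region (20.9%), and Tbx3 and Twist1 had 2 each. Twist1, a basic helix-loop-helix factor of cranial mesenchyme, had a strong pair. The region before its start, chr12:33956916-33957457, had a fold of 4.16, 3.75 and 4.09 in lists 1, 2 and 3. The region at the gene, chr12:33957874-33958858, had a fold of 4.6, 3.84 and 3.97. Both lay in the top 2.48% of lists 2 and 3, and in list 1 in the top 24.4% and 10.8%. Tbx3, a T-box repressor, had regions 40.2 and 87.2 kb away, with a fold of 3.08, 2.62 and 2.53 at the nearer and 4.0, 2.95 and 2.78 at the farther. The nearer Tbx3 region was among the weakest of lists 1 and 3, at 92.4% and 86.0% of the way down their rankings.

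Single regions were found for other palate factors, Osr2 among them. Meox2, a homeobox gene whose loss causes cleft palate in mice, had a region inside the gene, 0.32 kb from its boundary, with a fold of 3.72, 2.47 and 3.51 in lists 1, 2 and 3. List 2 was the lowest there. Pdgfra, the receptor for platelet-derived growth factor in neural crest cells, had a region inside the gene 4.63 kb from its boundary, with a fold of 3.45, 2.9 and 2.66. Ror2, a receptor of Wnt5a, had a region inside the gene 1.87 kb from its boundary, with a fold of 3.76, 2.36 and 2.78. Vax1, a homeobox factor of the ventral forebrain, had a region 12.1 kb away with a fold of 6.57, 3.5 and 2.96. At Vax1 the lists differed the most among the palate genes, with a mean of 4.34 ± 1.95 (SD, n = 3), and list 1 alone carried the high value.

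Among the palate signalling genes, 10 of 46 had a shared region (21.7%). In the FGF pathway, Fgf18, a ligand for bone and cartilage growth, had 2 neighbouring regions at 56.6 and 57.2 kb, with a fold of 3.7, 3.49 and 2.84 and of 3.23, 3.74 and 4.05 in lists 1, 2 and 3. Etv5, an ETS factor induced by FGF signals, had a region at its start with a fold of 4.53, 3.49 and 3.0, and Spry1, a feedback inhibitor of the pathway, had a region 1.54 kb away with a fold of 4.1, 3.33 and 3.13. The regions of all 3 genes stood within the top 5.26% of list 2, where the median shared region stood at 10.0%. In list 1 they ran from the top 5.11% at Etv5 to 76.6% at Fgf18. In list 3 they ran from 4.27% to 75.6%, both at Fgf18, so the lists did not agree on their strength. In the TGFβ and BMP pathways, the type I receptor Tgfbr1 had a region at its start with a fold of 4.09, 3.6 and 3.77, the closest folds in this group. By rank the Tgfbr1 region stood in the top 27.0%, 1.83% and 3.7% of lists 1, 2 and 3. The BMP type I receptor Acvr1 had a region 23.3 kb away, inside Upp2, with a fold of 3.79, 3.84 and 2.79. The ligand Bmp7 had a region inside the gene with a fold of 2.96, 2.64 and 2.21 and no base common to the 3 lists.

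In the Hedgehog pathway, Gli3 had 3 shared regions of 1044 to 1347 bp, all wider than the median of 548 bp. The region at its start, chr13:15463085-15464431, had a fold of 4.16, 2.81 and 3.54 in lists 1, 2 and 3. The region inside the gene, chr13:15724518-15725863, had a fold of 4.36, 3.07 and 3.48, and the region beyond its far boundary, chr13:15767290-15768333, had 3.97, 3.1 and 3.56. The 3 regions were of like strength in every list, with list 1 the highest throughout. In the Wnt pathway, Ctnnb1, which encodes β-catenin, had a region at its start with a fold of 4.81, 2.81 and 3.32. Of the retinoic acid receptors, Rarb had a region inside the gene, 71.5 kb from its nearer boundary, with a fold of 3.5, 2.3 and 3.68, and Rarg a region 0.316 kb away with a fold of 3.02, 2.23 and 2.32. Rarg had the lowest mean fold of the 25 regions at palate genes, 2.52, whose median was 3.45, against 3.35 over all shared regions.

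Shared regions overlapped the listed 300-base promoters of the palate and tooth genes Twist1, Gli3, Tgfbr1, Etv5, Ctnnb1 and Dlx1, whose 150 bases before the start are shown to set them beside the best-ranked promoters. Capitals again mark CCAAT and GGGCGG on either strand, and the sequences are from RefSeq on GRCm38.p6.
Twist1, chr12:33957521-33957670, plus strand: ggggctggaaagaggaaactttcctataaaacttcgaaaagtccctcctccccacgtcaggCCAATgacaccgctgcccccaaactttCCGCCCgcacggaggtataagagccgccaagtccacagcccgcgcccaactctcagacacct
Gli3, chr13:15463573-15463722, plus strand: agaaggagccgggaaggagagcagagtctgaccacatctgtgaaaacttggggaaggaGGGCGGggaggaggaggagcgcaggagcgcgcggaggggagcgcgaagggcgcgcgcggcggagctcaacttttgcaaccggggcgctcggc
Tgfbr1, chr4:47353072-47353221, plus strand: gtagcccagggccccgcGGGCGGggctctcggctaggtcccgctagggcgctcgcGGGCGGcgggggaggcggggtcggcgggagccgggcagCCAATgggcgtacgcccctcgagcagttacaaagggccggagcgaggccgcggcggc
Etv5, chr16:22439571-22439720, minus strand: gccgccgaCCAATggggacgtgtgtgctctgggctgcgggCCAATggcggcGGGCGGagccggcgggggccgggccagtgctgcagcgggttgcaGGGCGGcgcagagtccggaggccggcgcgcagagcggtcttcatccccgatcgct
Ctnnb1, chr9:120933428-120933577, plus strand: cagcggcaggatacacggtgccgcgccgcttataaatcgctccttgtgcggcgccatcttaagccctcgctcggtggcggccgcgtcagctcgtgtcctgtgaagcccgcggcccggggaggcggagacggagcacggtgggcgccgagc
Dlx1, chr2:71529295-71529444, plus strand: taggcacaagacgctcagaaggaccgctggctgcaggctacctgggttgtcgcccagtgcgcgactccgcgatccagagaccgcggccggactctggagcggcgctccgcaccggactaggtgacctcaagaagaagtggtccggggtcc
Etv5 held 2 CCAAT boxes and 2 GC boxes, Tgfbr1 held 1 and 2, Twist1 held 1 of each, and Gli3 held a GC box alone. Ctnnb1 and Dlx1 held neither. At Twist1 0 of the 150 bases lay in a shared region: they fill the gap between its 2 regions, and the overlap was with the far end of the promoter. At Dlx1 83 bases lay in the shared region, and at the other 4 genes all 150 did. Twist1 and Ctnnb1 also held TATAAA, which 3.86% of all overlapped promoters held in their 300 bases. All 6 promoters were rich in CG pairs, with 27 each at Twist1 and Dlx1, 34 at Tgfbr1, 37 at Etv5, 39 at Gli3 and 51 at Ctnnb1 in 300 bases, above the median of 25 for overlapped promoters. For Osr2 and Sox9 no promoter sequence was used here.

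Most palate factors had no shared region, 34 of 43. For 13 of these a region was called in 2 lists, among them Mn1, Foxf1, Gsc, Chd7, Alx4, Pax9, Sim2, Crkl, Pdgfc, Kcnj2 and Ryk. Foxf1, a forkhead factor of Hedgehog-responsive mesenchyme, had 9, 9 and 0 regions in lists 1, 2 and 3, of which 6 were called in 2 lists. Mn1, a transcriptional cofactor needed for palate growth in mice, had 8, 14 and 1, and Chd7, the remodeller mutated in CHARGE syndrome, had 2, 12 and 5. The regions of Foxf1 and Mn1 thus came mostly from lists 1 and 2, and those of Chd7 from lists 2 and 3. For another 16 every region was called in 1 list at a time: Osr1, Msx1, Shox2, Foxf2, Barx1, Tbx2, Tbx1, Prrx1, Tfap2a, Snai1, Snai2, Hand2, Eya1, Efnb1, Ephb2 and Ephb3. Msx1, a homeobox gene required in the anterior palate, had 2, 10 and 1 regions with no overlap between lists. Pax9, required for palate and teeth, had 1, 2 and 2, and Shox2, a homeobox gene of the anterior palate, had 0, 1 and 0. No list held a region for Tbx22, Alx1, Tfap2b, Hoxa2 and Mef2c. A missing call does not show closed chromatin, since the lists hold only what passed the authors' threshold.

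Of the palate signalling genes 36 of 46 had no shared region. A region called in 2 lists was found for 25: the BMP and activin genes Bmp2, Bmp4, Bmpr1a, Acvr2b, Inhba, Fst and Nog, the TGFβ genes Tgfbr2 and Itgav, the FGF genes Fgf10, Fgfr1, Fgfr2 and Spry2, the Hedgehog genes Shh, Ptch1, Smo, Gli2 and Boc, the Wnt genes Wnt5a, Lrp6, Lef1 and Axin2, the growth factor Vegfa, and the retinoic acid enzymes Aldh1a2 and Cyp26b1. Gli2, the main transcriptional activator of the Hedgehog pathway, had 11, 20 and 7 regions in lists 1, 2 and 3. Of these, 8 were called in 2 lists and none in all 3, while Gli3, its paralogue, had 3 shared regions. Shh, the ligand, had 5, 9 and 2 regions with 1 called in 2 lists, and its receptor Ptch1 had 7, 8 and 3 with 2 called in 2 lists. Tgfb2, Tgfb3, Itgb8, Etv4, Gli1, Wnt11, Rspo2 and Jag2 had regions in 1 list at a time. Acvr2a, Fgf7 and Wnt9b had none in any list.

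Skeletal genes had shared regions at a share near the background, 9 of 58 (15.5%), against 13.5% of all genes. Within 1 kb the counts were 6 of 58 (10.3%), against 7.24%. Per 100 kb of stretch they had 0.129 regions, against 0.196 over all genes. Of the 28 osteogenic genes 4 had a region. Dlx6, a homeobox gene of the jaw, had a region of 185 bp inside the gene with a fold of 5.19, 2.81 and 3.06 in lists 1, 2 and 3. Twist2, a paralogue of Twist1 that holds back osteoblast differentiation, had a region inside the gene with a fold of 4.34, 3.23 and 3.49. Bmp3, a BMP family member that limits bone formation, had a region with a fold of 5.47, 3.33 and 3.14, and Satb1, a chromatin organiser, a region with a fold of 3.5, 2.73 and 3.51. At Dlx6, Twist2 and Bmp3 list 1 lay above both other lists, and these 3 regions were within 1 kb of a boundary.

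Of the 30 chondrogenic genes 5 had a region, among them the SOX trio of cartilage. Beside Sox9, its partner Sox5 had a region 43.3 kb away with a fold of 3.94, 4.43 and 3.92, the highest mean of the skeletal regions at 4.1 ± 0.292 (SD, n = 3). Sox6 had a region of 208 bp 5.66 kb away with a fold of 3.98, 2.59 and 3.84. Nkx3-2, a homeobox gene that promotes cartilage, had a region inside the gene with a fold of 3.23, 2.71 and 3.02. Cnmd, which encodes the cartilage matrix protein chondromodulin, had a region with a fold of 3.88, 3.07 and 2.56 and no base common to the 3 lists. The SOX regions were thus called at each gene, but those of Sox5 and Sox6 lay outside their gene bodies.

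The shares with a shared region, 14.3% of osteogenic and 16.7% of chondrogenic genes, lay near the 13.5% of all genes. Among the 24 osteogenic genes with no shared region, 14 had a region in 2 lists: Runx2, Sp7, Dlx3, Dlx5, Alpl, Spp1, Bglap, Dmp1, Mepe, Col1a1, Sparc, Postn, Sost and Cdh11. Msx2, Col1a2 and Enpp1 had regions in 1 list at a time, and Ibsp, Phex, Atf4, Cbfb, Tnfrsf11b, Zeb2 and Ifitm5 had none. Sp7, the osteoblast factor downstream of Runx2, had 3, 4 and 1 regions in lists 1, 2 and 3, and Col1a1, the main bone collagen, had 1, 4 and 1. Cdh11, a mesenchymal cadherin, had 1, 3 and 3, with 3 regions called in 2 lists. Of 25 chondrogenic genes without a shared region, Trps1, Acan, Matn1, Col9a2, Col10a1 and Barx2 had a region in 2 lists. Col2a1, Comp, Matn3, Col9a1, Col11a1, Col11a2, Hapln1, Ihh, Pthlh, Fgfr3, Runx3, Gdf5, Wwp2 and Foxa2 had regions in 1 list at a time, and Col9a3, Snorc, Pth1r and Scx had none. Col2a1, the main cartilage collagen, had 0, 2 and 1 regions, and Acan, the main cartilage proteoglycan, had 3, 5 and 3 with 3 called in 2 lists.

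Tooth genes had the largest share among the gene lists, 6 of 18 (33.3%), against 13.5% of all genes. Their median stretch was 120 kb, against 45.8 kb for all genes. Per 100 kb of stretch they had 0.311 regions, against 0.196 over all genes. Blood cell genes had more by this measure, 0.342 per 100 kb, and Runx1 counts in both lists. Runx1, a factor of blood and dental tissue, had 2 regions. The region inside the gene, chr16:92606312-92607429, had a fold of 4.48, 3.44 and 3.61 in lists 1, 2 and 3 and stood in the top 4.19% of each list. The region 47.1 kb away had a fold of 3.94, 3.23 and 2.61. List 1 was the highest at both. Dlx1, a homeobox gene of the maxillary mesenchyme, had a region inside the gene with a fold of 3.09, 2.67 and 2.64. Edar, the ectodysplasin receptor, had a region with a fold of 3.75, 2.72 and 3.34, and Fgf9, an epithelial ligand, a region 26.1 kb away with a fold of 3.94, 2.73 and 3.24. Ctnnb1, described above, is also on this list. Within 1 kb only 2 of 18 tooth genes had a region (11.1%), so most of these regions were distal. Lhx8, Dlx2, Fgf8, Lmo4 and Dspp had a region in 2 lists, Lhx6, Pitx1, Eda, Fgf3 and Wnt10a had regions in 1 list at a time, and Sostdc1 and Amelx had none.

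**Figure D5:**
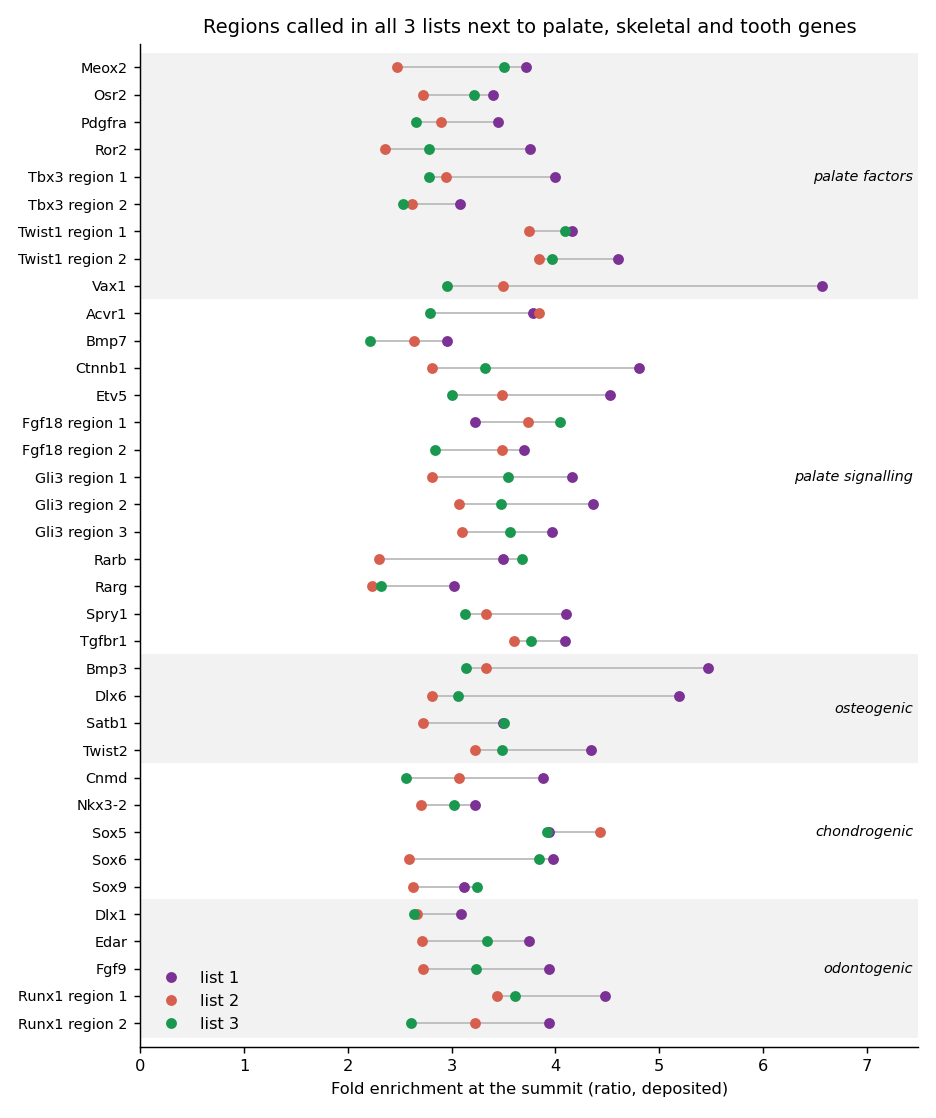
Fold enrichment at the strongest summit (ratio, as deposited) in list 1 (purple), list 2 (red) and list 3 (green) for each region called in all 3 E12.5 lists that was assigned to a palate, skeletal or tooth gene named in the text; the grey line joins the lists, which are not scaled to each other. List 1 stood far above the others at Vax1 with 6.57 and at Bmp3 with 5.47, whereas the lists lay close together at Tgfbr1 and Twist1.

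Markers of cell types that the dissection could carry along were reached, as a pooled set, at about the background share. Of 85 such genes 12 had a shared region (14.1%), against 13.5% of all genes, and 4 had a region within 1 kb (4.71%), against 7.24%. Their density was 0.181 regions per 100 kb, close to the 0.178 of the palate genes. Among epithelial markers 2 of 15 had a region, and Grhl2, an epithelial transcription factor, was among them. Among endothelial markers 3 of 15 did. Cdh5, the cadherin of endothelial junctions, had a region with a fold of 5.52, 4.52 and 3.62 in lists 1, 2 and 3, Flt1, a VEGF receptor, had a region with 5.17, 3.29 and 3.08, and Sox17 had 2. The Cdh5 region stood in the top 0.73%, 0.173% and 10.5% of lists 1, 2 and 3. It ranked above any region of the palate genes in list 2, but below Vax1 (top 0.233%) in list 1. In list 3 it ranked below both Twist1 regions, which lay in the top 2.48%. Blood cell genes gave 3 of 15: Runx1, the immune adaptor Tyrobp, and Ikzf1, a lymphoid factor with a region at its start and a fold of 3.72, 3.84 and 4.66. Neuronal genes gave 3 of 15, with 2 regions at Syt1 and 1 each at Elavl4 and Nefl, and glial genes gave 1 of 10. None of the 15 muscle genes had a shared region. The part of such cells in the shared regions was not tested.

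Genes typical of other organs, and genes that every cell uses, were counted in the same way. Beside the 13.5% of all genes, 9 of 1110 olfactory receptor genes had a shared region (0.811%), at 0.0338 regions per 100 kb. Of 32 genes of adult organs 3 did (9.38%), among them Umod, a kidney protein, and Sftpb, a lung surfactant protein. The median stretch of these 32 genes was 25.4 kb, and they had 0.213 regions per 100 kb, against 0.196 over all genes. Of 36 ribosomal protein genes, which every cell transcribes, 2 did (5.56%), Rpl27 and Rps24, over a median stretch of 13.0 kb. Ribosomal protein genes thus had a smaller share than palate genes but 0.215 regions per 100 kb. Within 1 kb 2.78% of the ribosomal protein genes had an assigned shared region, against 7.24% of all genes. In the separate lists 22.2% to 30.6% of the ribosomal protein genes had a region there, against 16.6% to 31.8% of all genes. The share was thus smaller for all genes as well when every list had to call the region. These counts miss genes that share a start region with a nearer gene. Rpl15 was not counted, although the summit of a shared region lay at -129 bp from its start.

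None of the 5 widest shared regions was among the 10 best-ranked. The widest, 2210 bp at the start of Pdzd8, a lipid transfer protein of the endoplasmic reticulum, had a fold of 4.97, 3.14 and 3.14 in lists 1, 2 and 3. It was followed by LOC108167320 with 2024 bp, Klf13, a Krüppel-like factor, with 2015 bp, Ephb6, an Eph receptor without kinase activity, with 1911 bp, and Magel2, an imprinted gene, with 1910 bp. Of these the region at LOC108167320 held 8 peaks and stood in the top 0.67%, 0.0357% and 0.0522% of lists 1, 2 and 3. The regions at Ephb6 and Magel2 stood only in the top 28.2% and 63.6% of list 1, so width did not go with rank there. The 10 best-ranked regions were themselves mostly wider than the median of 548 bp, at 541 to 1389 bp.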

How the data were processed

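ATAC-seq peak lists of 3 biological samples at E12.5 were used. Bowtie2, MACS2, deepTools 3.3.1 and the mm10 build are listed in the submitters' processing notes, and per the labels the lists came from paired-end alignments with blacklisted regions removed. The peak caller's threshold and any shift of reads for the Tn5 insertion offset are not stated in the sources used. The smallest −log10 q in the lists was 1.3, 1.3 and 1.31. Each list was called per sample. The authors deposited, for every peak, a fold enrichment (a ratio) and a −log10 p-value and −log10 q-value. Peaks were ranked within a list, and ranks and folds were then averaged over the 3 lists without scaling the lists to each other. Without read counts the depth is unknown, and no counting interval can be given.

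Peaks overlapping by at least 1 bp were merged, and the strongest summit (highest −log10 q) stood for a region. Distances were taken to the nearest boundary of 21627 protein-coding genes (RefSeq, GRCm38.p6), without strand, up to 100 kb. The promoter table gives strand and start for 17273 genes, and 66.8% of the 316 genes in the gene lists had an entry. It has no entry on chromosome 18, which held 120 shared regions. Results on promoters, strand and transcription starts therefore leave out that chromosome. The labels call the samples biological replicates. No second group entered, so no test of a difference was made, and the spread over 3 lists is the only error. The merging was tested on simulated lists.

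The region rule and gene lists were chosen with earlier results of these data known. Genes are named by rule: the 3 markers, 15 genes with most shared regions (ties, here among 23 genes with 3, by alphabet), up to 4 genes of each list with most, every palate, skeletal and tooth gene with none, and the 10 best-ranked and 5 widest regions. All other palate, skeletal and tooth genes with a shared region, and genes of other lists where few had any, were named after their values were seen. Some genes that this rule would name are not reported here. Alternatives changed the peak threshold, the overlap rule, list length, distance and gene assignment, and left out each list. The work was done in Python 3.11.15 with pandas 2.3.3, NumPy 2.4.6, Matplotlib 3.10.9 and SciPy 1.17.1.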

Additional observations from a re-analysis of the deposited data

How the results depend on the processing

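Keeping peaks with a −log10 q of at least 2 changed width, boundary share and gene shares by no more than their SD over the 3 whole lists. This is a coarse measure, since that SD was 10.3 points for all genes, 9.8 for palate and 11.5 for skeletal genes. At this threshold 2656 of the 2928 genes with a region kept one. At 5 or more, 375 shared regions were left, with a median width of 763 bp, 72.3% within 1 kb of a boundary, a region at 1.68% of all genes, 1.12% of palate and 1.72% of skeletal genes, and 0 genes with 3 or more regions. Taking only bases covered in all 3 lists gave a median width of 102 bp and 89 genes with 3 or more, since 1 region can split. Requiring summits within 250 bp gave 2291 regions, a median width of 457 bp and 9 such genes. Lists cut to equal length by −log10 q gave 10 such genes, and so did a reach of 20 kb. The share of regions near a boundary was 37.6% at 500 bp and 56.8% at 2.5 kb.

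Leaving out a list replaces "all 3" by "both", which loosens the rule by construction. The number of regions then ran from 3754 to 9940, the median width from 306 to 444 bp, the boundary share from 24.9% to 44.0% and the summit spread from 63 to 108 bp. The share of genes with a region ran from 14.5% to 28.3% for all genes, 27.0% to 49.4% for palate genes and 13.8% to 37.9% for skeletal genes, and genes with 3 or more regions numbered 43 to 556. The palate share stayed above that of all genes in each of these, and fell below it only at a −log10 q of 5 or more. The skeletal share fell below it without list 2 and when distance was taken from transcription starts, among genes with a listed start, 12.5% against 14.8%.

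Osr2 lost its region at a −log10 q of 5, with common bases, with summits within 250 bp, in equal-length lists and without list 2. Sox9 lost its region at 5. Without list 3, Osr2 had 4 regions, Sox9 4 and Runx2 1, and Sox9 had 2 without list 1 or list 2. Runx2 also gained 1 region when a region was first given to the gene that holds it. No paired analysis was possible because a single stage was described and no groups were compared.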

Other observations

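Of 1005 miRNA hairpins of RefSeq, 28 lay within 2.5 kb of a shared region (2.79%), and 6 were overlapped. Mir148a lay 0.736 kb, Mir130a 1.09 kb, Mirlet7e 1.79 kb, Mir22 2.0 kb and Mir125a 2.25 kb from the nearest shared region. These were picked after the distances were seen. The region at the boundary of Mir22hg, the host transcript of Mir22, had a fold of 3.14, 3.11 and 3.06 in lists 1, 2 and 3, the narrow range of 3.1 ± 0.0399 (SD, n = 3). Its ranks differed more, at the top 41.1%, 1.03% and 3.96% of lists 1, 2 and 3. Of 12697 lncRNA genes in the annotation, boundaries lay within 1 kb of 366 shared regions, and 132 of these regions were over 1 kb from any protein-coding boundary. At Dleu2, such a region had a fold of 3.64, 3.32 and 3.52 and no base common to the 3 lists.

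Some shared regions were strong and far from protein-coding genes. The best-ranked of the 197 regions beyond 100 kb, chr8:73618983-73619276, lay 855 kb from F2rl3, the nearest gene, with a fold of 9.63, 5.71 and 4.6 in lists 1, 2 and 3. It was peak number 11 by rank in both list 1 and list 2 and number 185 in list 3. Its width of 294 bp was below the median of shared regions.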
